A study of Mus musculus with 12 samples.

Results

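The receptors for interleukin-2 (IL-2) and its related cytokines were followed through 12 bulk RNA-seq libraries of mouse regulatory T (Treg) cells. The genes were chosen by name, as Il2ra, Il2rb, Il2rg, Il4ra, Il7r, Il9r, Il15ra and Il21r. These are 8 of the 55413 genes in the deposited tables, and all 8 passed the filter on low counts. The control group held 4 libraries of total Treg cells sorted from the lymph nodes of tumor-free mice. The tumor groups held 3 libraries of pTreg and 5 libraries of tTreg cells, both sorted from Hepa1-6 tumors, a mouse hepatoma line, on day 18 after inoculation. To make the tumor groups, tTreg cells from spleen and lymph nodes of CD45.1 Foxp3YFP-cre donors were transferred at a ratio of 1:10:8 with Foxp3- conventional CD4+ and CD8+ T cells of CD45.2 Foxp3YFP-cre donors. The hosts were TCRbd-/- mice, which lack T cells of their own but keep myeloid cells, B cells and NK cells, and the tumor cells followed 3 days after the transfer. The series title describes Treg cells that arise from T helper 1 cells in tumors, and pTreg stands here for the tumor Treg population set against the transferred tTreg cells.

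Every library carries the same genotype label, Foxp3YFP-cre and TCRbd-/- mice, which does not say which of these applies to the lymph node group. In the Foxp3YFP-cre reporter allele, YFP and Cre are made under the Foxp3 locus. Age, the number of mice behind a library, and whether the tumor-free mice had received transferred cells were not given in the sources used here. Nothing in the labels says that the libraries of a group came from separate mice, so p-values measure the spread between these libraries, which may be technical. The lymph node cells also differ from the tumor cells in tissue and in the presence of a tumor at once, and these cannot be told apart.

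The common gamma chain, encoded by Il2rg, is a signalling subunit shared by the receptors for IL-2, IL-4, IL-7, IL-9, IL-15 and IL-21. Each cytokine adds its own chain or chains: Il2ra encodes CD25, which raises the affinity for IL-2, and Il2rb encodes the beta chain used by both IL-2 and IL-15. The receptors signal through the kinases JAK1 and JAK3 to STAT transcription factors. Treg cells are known for high CD25 and for their need of IL-2, and conventionally for low Il7r relative to other resting T cells.

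In the GENCODE vM21 annotation of GRCm38, Il2ra and Il15ra are neighbours on the same strand of chromosome 2, at 11642807-11693193 and 11705290-11734317. Il4ra and Il21r are likewise neighbours on chromosome 7, at 125552120-125579474 and 125603429-125633570. The gaps are 12096 and 23954 bases, and neither holds another protein-coding gene. Il2rb lies on chromosome 15 at 78479256-78495271 and Il7r on the same chromosome at 9505788-9530176. Il9r lies on chromosome 11 at 32187541-32200279, and Il2rg on the X chromosome at 101264378-101268255. The deposited values are estimates for whole genes, with isoforms not separated.

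Of the 8 genes, 7 matched the RefSeq promoter table (GRCm38.p6), and Il2rb had no entry. The 250 bases before the start are shown for the high-affinity chain, for the shared chain, and for Il21r, the only chain whose ratio to Il2rg was higher in pTreg than in both other groups. Positions are chr2:11642542-11642791 on the plus strand for Il2ra, chrX:101268256-101268505 on the minus strand for Il2rg and chr7:125603179-125603428 on the plus strand for Il21r. Capitals mark a match to the NF-kB consensus in Il2ra and to the ETS core CCGGAA in Il2rg.
Il2ra: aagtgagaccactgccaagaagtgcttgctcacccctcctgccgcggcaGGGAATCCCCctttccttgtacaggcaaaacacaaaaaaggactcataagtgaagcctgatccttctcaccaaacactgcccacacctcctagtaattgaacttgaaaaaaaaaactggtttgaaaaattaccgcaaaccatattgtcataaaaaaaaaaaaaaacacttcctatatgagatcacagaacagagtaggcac
Il2rg: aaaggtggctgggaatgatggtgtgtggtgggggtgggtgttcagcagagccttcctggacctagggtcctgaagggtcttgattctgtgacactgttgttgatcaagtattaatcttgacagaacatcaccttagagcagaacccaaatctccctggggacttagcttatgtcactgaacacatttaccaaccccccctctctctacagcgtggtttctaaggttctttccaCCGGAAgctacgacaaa
Il21r: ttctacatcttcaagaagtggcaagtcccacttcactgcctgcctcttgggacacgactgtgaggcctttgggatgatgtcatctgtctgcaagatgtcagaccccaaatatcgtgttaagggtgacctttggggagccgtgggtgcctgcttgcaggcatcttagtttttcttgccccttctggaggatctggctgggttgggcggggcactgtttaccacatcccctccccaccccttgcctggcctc
Both strands were searched for the NF-kB consensus, CCGGAA and the STAT motif TTCNNNGAA. The Il2ra match begins 201 bases before the start and the Il2rg match 17 bases before it, and the Il21r window holds none of the 3 motifs. Il7r holds 1 STAT match and the first of the Il15ra windows 1 ETS match, while Il4ra and Il9r hold none. Among 32851 promoter windows of this length, 5.0% hold the NF-kB consensus and 7.02% the STAT motif, and CCGGAA is in 3952 of them. The Il4ra window is rich in G and C, with 59.6% GC and 17 CpG, against medians of 52.4% and 6 over all windows.

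Libraries held 14573864 to 18510923 counts. The 18 pan-T genes, such as Cd3e, Trac and Lck, summed to 6778 ± 77.0 CPM (counts scaled to library size; SD, n = 4) in lymph node Treg libraries, 1347 ± 11.4 (n = 3) in tumor pTreg and 135.7 ± 3.16 (n = 5) in tumor tTreg. The Treg list of 6 genes, which includes Foxp3, summed to 2249, 289 and 80.2 CPM in the same order, so the defining markers of the labelled cell type were present but lower in both tumor groups. All 14 macrophage and monocyte genes had counts in each group, and their sums were 111 to 116 CPM in lymph node, 10582 to 10649 in pTreg and 10326 to 10893 in tTreg libraries. Of the 10 Hepa1-6 or hepatocyte genes 9 had counts in the tumor groups, with Serpina1a at 0, and summed to 5386 to 5755 CPM in pTreg and 7956 to 8306 in tTreg libraries, against 7.44 to 9.53 in lymph node libraries, where Apoa2 and Fgb were at 0. Dendritic cell genes (8 of 8) summed to 10.8 to 12.03, 279 to 297 and 311 to 321 CPM. Markers of CD8 T cells (2 of 2) summed to 21.0, 32.8 and 1.10 CPM, and the 6 NK cell genes to 2.16, 17.8 and 1.52 CPM. Eomes, which T cells also use, gave most of that pTreg sum, at 0.902, 16.4 and 0.208 CPM, while Klrb1c was at 0.834, 1.14 and 1.09 CPM and Ncr1 at 0 in the pTreg group. The 5 mast cell and ILC2 genes summed to 191 to 197, 52.6 to 55.3 and 14.3 to 16.3 CPM, the order of the receptor genes per whole library. Of these, Cpa3, Mcpt4 and Fcer1a were at 0 in pTreg, and the others, Gata3 and Il1rl1, are also made by Treg cells. The 5 endothelial genes summed to 188 to 193, 36.5 to 43.1 and 20.7 to 22.6 CPM, in that same order, with Tek and Emcn at 0 in lymph node libraries. The 8 fibroblast genes, among them Thy1, which T cells also make, summed to 283, 286 and 739 CPM, with Col3a1, Lum and Pdgfra at 0 in lymph node libraries. Neutrophil genes (6) summed to 2.21, 41.1 and 40.6 CPM, with Ly6g at 0 in lymph node libraries, and B cell genes (8 of 8) to 14.7, 4.003 and 3.60 CPM. The part of these other cells in the receptor values was not tested. The pan-T genes do not separate Treg cells from other T cells. In pTreg libraries, unlike those of the other groups, the CD8 marker Cd8a (23.6 CPM) was above Foxp3 (20.3 CPM). In bulk libraries, fewer T cells and less receptor RNA per T cell cannot be told apart. The 8 receptor genes are for this reason described both per whole library and per pan-T count.

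**Figure D1:**
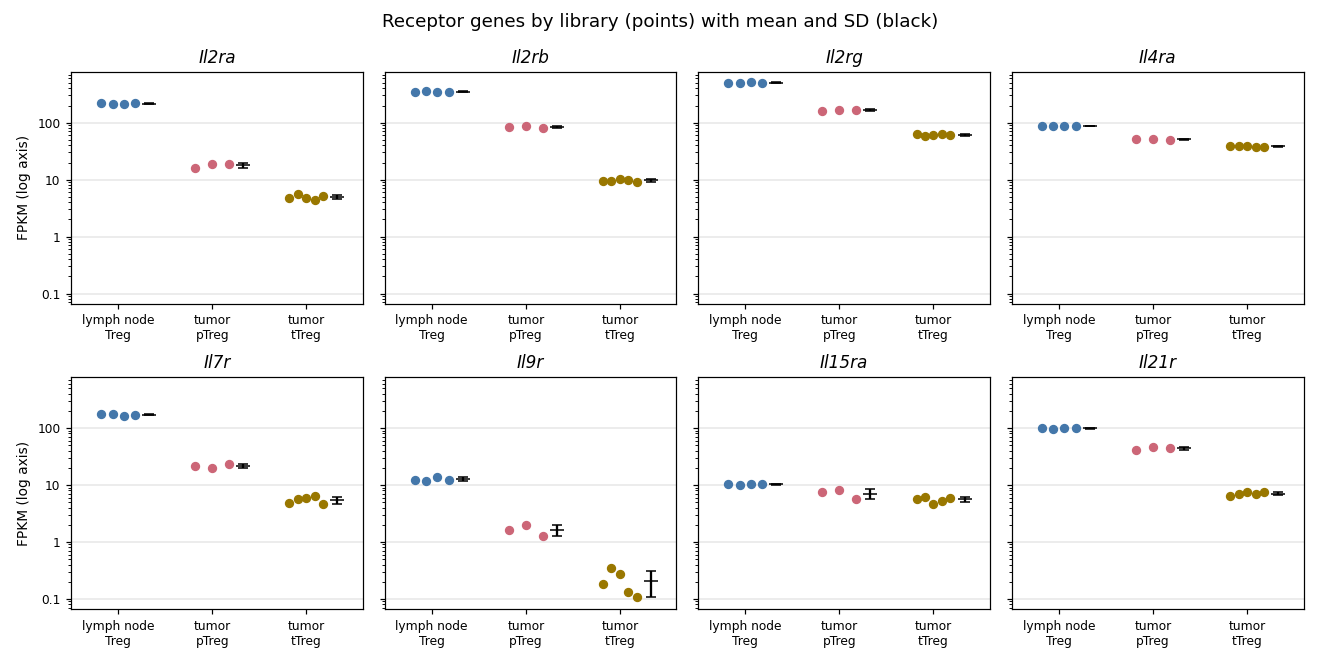
FPKM of each of the 8 receptor genes (log axis, shared by all panels) in every library, with the mean and SD of each group in black. Lymph node Treg libraries are highest for each gene, and only for Il15ra do the tumor pTreg and tTreg points overlap. Overlap was not counted over all genes.

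The shared chain was the most abundant of the family in each group. Il2rg was at 494, 491, 509 and 506 FPKM (fragments scaled to gene length and library size) in lymph node Treg replicates 1 to 4. It was at 158, 166 and 169.8 FPKM in the pTreg libraries and at 62.0, 58.2, 61.4, 62.2 and 61.8 in the tTreg libraries. The groups did not overlap, with lymph node highest and tTreg lowest. By edgeR's quasi-likelihood test with Benjamini-Hochberg adjustment over the 15705 genes tested, Il2rg fell 2.89-fold in pTreg against lymph node Treg (log2 fold change -1.53, SE 0.0327, adjusted p = 2.99e-26). The fall in tTreg was 7.40-fold (log2 fold change -2.89, edgeR adjusted p = 4.87e-34), and pTreg was 2.56-fold above tTreg (log2 fold change 1.36, edgeR adjusted p = 1.78e-23).

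Il2ra, the CD25 gene, was lower in the tumor by a larger factor. It was at 217, 213, 209.9 and 219 FPKM in lymph node libraries, at 16.0, 19.2 and 18.8 in pTreg libraries and at 4.79, 5.59, 4.75, 4.47 and 5.27 in tTreg libraries. All 3 groups were separate. The change was 11.1-fold lower in pTreg (log2 fold change -3.48, SE 0.0356, edgeR adjusted p = 7.3e-34) and 39.7-fold lower in tTreg (log2 fold change -5.31, edgeR adjusted p = 2.25e-38). The pTreg libraries were 3.57-fold above tTreg (log2 fold change 1.84, edgeR adjusted p = 1.51e-23). By FPKM only Il2rg and Il2rb were above Il2ra in lymph node Treg, while in pTreg Il15ra and Il9r alone were below it. In tTreg its values overlapped those of Il7r. A predicted gene, Gm37881, lies on the same strand within Il2ra and had 34 to 51, 3 to 10 and 0 to 4 counts per library in the 3 groups, against 10232 to 12267, 1008 to 1096 and 289 to 321 counts for Il2ra.

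Il2rb, the signalling chain of both IL-2 and IL-15 receptors, differed 8.61-fold between the tumor populations, where Il2ra differed 3.57-fold; the ratio of these chains is compared further on. Il2rb was at 352, 355, 344 and 344 FPKM in lymph node libraries and at 82.9, 87.6 and 80.03 in pTreg libraries. The tTreg libraries held 9.63, 9.61, 10.25, 9.85 and 9.04 FPKM. Every pTreg library lay above every tTreg library and below every lymph node library. The fall against lymph node Treg was 3.79-fold in pTreg (log2 fold change -1.92, SE 0.0312, edgeR adjusted p = 3.84e-29) and 32.6-fold in tTreg (log2 fold change -5.03, edgeR adjusted p = 1.64e-38). The difference between the tumor groups was higher in pTreg (log2 fold change 3.11, SE 0.0338, edgeR adjusted p = 2.75e-31).

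Il15ra, which binds IL-15 and presents it to cells with the beta and gamma chains, had, with Il4ra, the smallest fold changes of the family in the 3 comparisons, which were not tested against those of other chains. Its FPKM values were 10.2, 9.89, 10.35 and 10.6 in lymph node libraries, 7.51, 8.07 and 5.55 in pTreg and 5.68, 6.25, 4.65, 5.22 and 5.93 in tTreg. By FPKM, replicate 3 of pTreg lay within the tTreg range, while by CPM its 7.19 lay just above the highest tTreg value of 7.12. The fall was 1.43-fold in pTreg (log2 fold change -0.52, SE 0.0924, edgeR adjusted p = 8.89e-06) and 1.96-fold in tTreg (edgeR adjusted p = 1.44e-11). It was 1.37-fold higher in pTreg than in tTreg (log2 fold change 0.45, SE 0.0986, edgeR adjusted p = 0.000318). With 98 to 227 counts per library, its counting error was larger than that of the other members, except Il9r in the tumor groups. The gene length implied by its deposited counts and FPKM also ranged from 0.883 to 1.31 kb among libraries, so FPKM and counts weigh its libraries differently.

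Il7r, the specific chain for IL-7 and also part of the receptor for the cytokine TSLP, was lowest in tTreg and highest in lymph node Treg. It was at 175, 174, 164 and 172 FPKM in lymph node libraries, at 21.9, 19.98 and 23.1 in pTreg and at 4.79, 5.61, 5.98, 6.36 and 4.55 in tTreg. The groups were separate. The fall was 7.26-fold in pTreg (log2 fold change -2.86, SE 0.0353, edgeR adjusted p = 5.42e-32) and 31.5-fold in tTreg (log2 fold change -4.98, edgeR adjusted p = 1.61e-37). pTreg was 4.33-fold above tTreg (log2 fold change 2.12, edgeR adjusted p = 1.23e-24).

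Il4ra, the IL-4 binding chain, is used by T cells and also by macrophages, where it pairs with Il13ra1 to bind IL-13. Its levels were 87.8, 86.3, 88.6 and 87.2 FPKM in lymph node libraries, 52.6, 51.2 and 50.2 in pTreg and 38.5, 39.6, 38.8, 37.1 and 38.2 in tTreg. The groups did not overlap, but the whole range spanned less than for any other chain except Il15ra. Il4ra fell 1.58-fold in pTreg (log2 fold change -0.66, SE 0.0280, edgeR adjusted p = 9.07e-19) and 2.14-fold in tTreg (log2 fold change -1.09, edgeR adjusted p = 7.69e-26). It was 1.36-fold higher in pTreg than tTreg (log2 fold change 0.44, edgeR adjusted p = 7.29e-14). A predicted antisense gene, Gm44876, had 0 to 6 counts per library, and the sources used here do not say whether the counting used strand.

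Il21r, the IL-21 specific chain, lay in pTreg between the other groups, 2.10-fold below lymph node Treg and 6.25-fold above tTreg. It was at 99.7, 95.5, 99.6 and 97.8 FPKM in lymph node libraries, at 41.4, 46.6 and 44.1 in pTreg and at 6.45, 6.86, 7.43, 6.99 and 7.47 in tTreg. All 3 groups were separate. The fall was 2.10-fold in pTreg (log2 fold change -1.07, SE 0.0382, edgeR adjusted p = 1.15e-20) and 13.1-fold in tTreg (log2 fold change -3.71, edgeR adjusted p = 4.41e-33). pTreg was 6.25-fold above tTreg (log2 fold change 2.64, edgeR adjusted p = 1.46e-26).

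Il9r, the IL-9 specific chain, was one of the lowest chains and had few counts in tTreg. Its FPKM values were 12.3, 11.7, 14.0 and 12.4 in lymph node libraries, 1.62, 1.96 and 1.26 in pTreg and 0.18, 0.35, 0.27, 0.13 and 0.11 in tTreg. The counts behind them were 473 to 632, 79 to 97 and 1 to 11 per library, so the tTreg values carry a large counting error. Counts and FPKM also disagreed there, with 1 count but 0.18 FPKM in tTreg replicate 1, and 8 counts but 0.11 FPKM in replicate 5. The gene length these imply ranged from 0.304 to 4.02 kb in tTreg, which limits the Il9r shares and ratios by FPKM too. The fall was 6.63-fold in pTreg (log2 fold change -2.73, SE 0.103, edgeR adjusted p = 3.8e-20) and 87.0-fold in tTreg (log2 fold change -6.44, SE 0.141, edgeR adjusted p = 3.68e-26). pTreg was 13.1-fold above tTreg (log2 fold change 3.71, SE 0.231, edgeR adjusted p = 6.4e-14). On log2(FPKM + 1) the Il9r differences were -3.49 in tTreg against lymph node Treg and 1.11 in pTreg against tTreg, a scale that shrinks changes of low genes.

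All 8 genes therefore fell in each tumor group against lymph node Treg per whole library. Of all tested genes, 39.8% fell and 47.6% rose in pTreg (87.5% in either direction), and 42.3% fell and 48.1% rose in tTreg (90.3%). All 8 were higher in pTreg than in tTreg, as were 26.8% of tested genes, with 25.3% lower and 52.1% changed in either direction. The members' median log2 fold changes were -1.73 in pTreg and -4.34 in tTreg against lymph node Treg, and 1.98 between the tumor groups. Over all tested genes these medians were 0.12, 0.10 and -0.0080. The pTreg and tTreg comparisons with lymph node Treg share their control libraries. How many of all genes separate the groups without overlap was not counted. The separation of the members is therefore not read as particular to them.

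The 18 pan-T genes spread over a range against which the members can be placed. In pTreg against lymph node Treg they fell 2.18 to 15.3-fold (median 5.22), and 5 receptor genes fell within that range: Il2ra, Il2rb, Il2rg, Il7r and Il9r. In tTreg against lymph node Treg they fell 29.5 to 101.7-fold (median 49.2), and the 4 genes Il2ra, Il2rb, Il7r and Il9r fell within it. Between the tumor groups the pan-T genes were 4.73 to 16.8-fold higher in pTreg (median 10.9), a range that held Il2rb, Il9r and Il21r. Il4ra and Il15ra changed less than every pan-T gene in all 3 comparisons. The median log2 fold change over all tested genes was 0.12, 0.10 and -0.0080 in the same comparisons. How many of all tested genes lay within or below the pan-T ranges was not counted. The placement is therefore not read as particular to these chains.

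**Figure D2:**
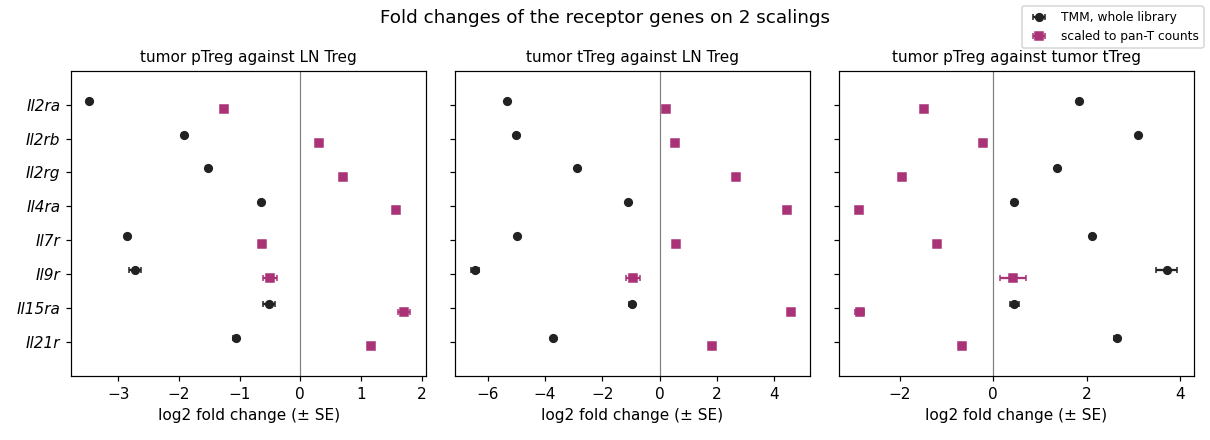
Log2 fold change (± SE) of each receptor gene in the 3 comparisons, per whole library (TMM, black circles) and scaled to pan-T counts (purple squares). All black circles lie below 0 against lymph node (LN) Treg and above 0 in pTreg against tTreg, while on the pan-T scale 5 and 7 of the 8 genes are above 0 against LN Treg and only Il9r is above 0 between the tumor groups.

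Scaling each library to its summed pan-T counts turned the direction of most members. It moved the median tested gene by 2.22 in pTreg against lymph node Treg, by 5.54 in tTreg against lymph node Treg and by -3.32 between the tumor groups on the log2 scale. On this scale the counts per 100 pan-T counts were as follows. Il2ra stood at 10.4 ± 0.211 (SD, n = 4) in lymph node Treg, 4.37 ± 0.191 (n = 3) in pTreg and 12.2 ± 0.780 (n = 5) in tTreg. In pTreg, Il2ra fell 2.38-fold against lymph node Treg (edgeR adjusted p = 4.18e-24), more than any other member, and was 2.80-fold below tTreg (edgeR adjusted p = 2.92e-23). Il7r, at 6.76, 4.36 and 10.0, showed the same order, lowest in pTreg. This order did not hold per Foxp3 count, where both genes were highest in pTreg. There Il2ra stood at 1.60, 2.90 and 1.91 in lymph node Treg, pTreg and tTreg, and Il7r at 1.04, 2.89 and 1.56.

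Il2rb, at 18.8, 23.3 and 27.0 counts per 100 pan-T counts, kept within 1.43-fold of lymph node Treg in both tumor groups, and pTreg was 1.16-fold lower than tTreg (edgeR adjusted p = 8.96e-06). Il21r rose 2.23-fold in pTreg and 3.56-fold in tTreg, at 2.90, 6.48 and 10.3. Il2rg, at 8.44, 13.7 and 53.3, rose 1.62-fold and 6.31-fold. Il4ra, at 4.79, 14.2 and 104.9, and Il15ra, at 0.187, 0.611 and 4.45, rose most, 21.9-fold and 23.8-fold in tTreg against lymph node Treg. These 2 genes were also the nearest of the family to the median tested gene in each comparison.

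Il9r fell on both scales against lymph node Treg, from 0.504 to 0.356 and 0.265 per 100 pan-T counts, 1.42-fold in pTreg (edgeR adjusted p = 0.000104) and 1.90-fold in tTreg (edgeR adjusted p = 0.000869). Its tumor groups overlapped on this scale, and the difference between them missed the threshold (log2 fold change 0.42, SE 0.282, edgeR adjusted p = 0.149). In all, 5 members rose and 3 fell in pTreg (91.6% and 3.86% of tested genes), and 7 rose and 1 fell in tTreg (96.8% and 0.955%). Between the tumor groups 0 were higher and 7 lower in pTreg (0.573% and 97% of tested genes). The median member moved by 0.50, 1.20 and -1.34, against 2.34, 5.64 and -3.33 for all tested genes. Each member lay below the median tested gene in both comparisons with lymph node Treg and above it in pTreg against tTreg.

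**Figure D3:**
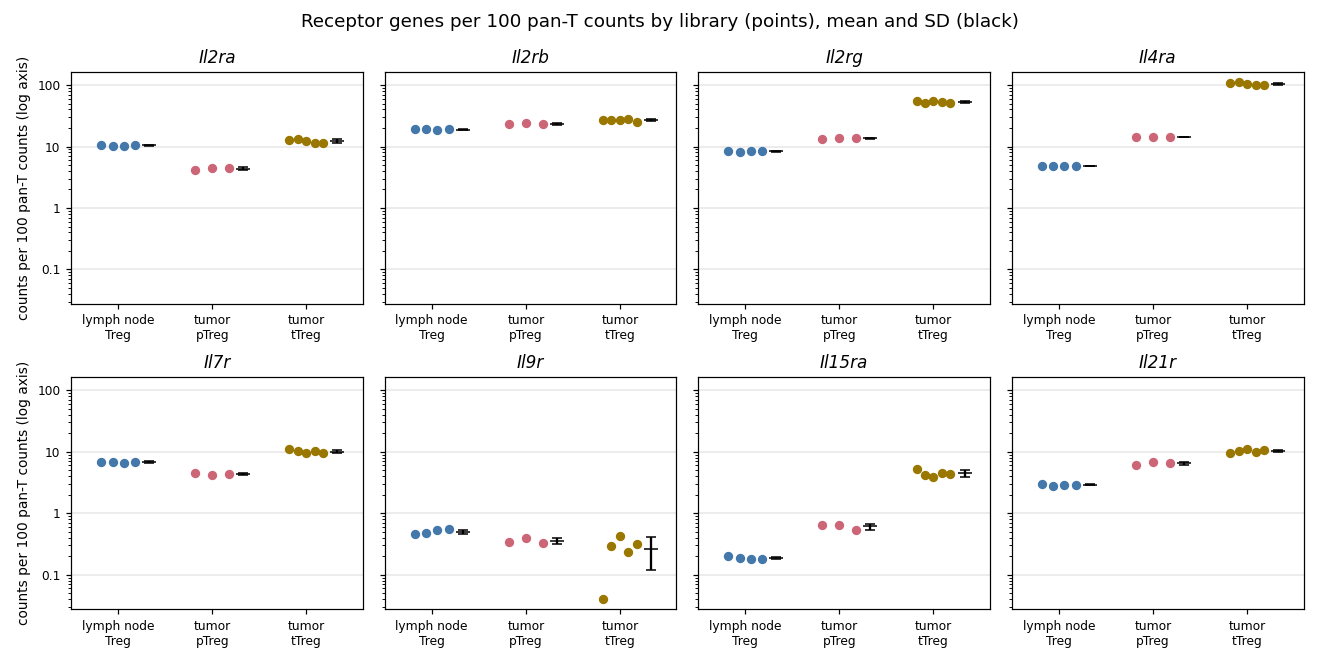
Counts of each receptor gene per 100 counts of the 18 pan-T genes (log axis, shared by all panels) in every library, with group mean and SD in black. Every gene but Il9r is highest in tTreg, Il2ra and Il7r are lowest in pTreg, and Il9r is spread over a wide range in tTreg.

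The make-up of the family does not depend on how libraries are scaled. The 8 genes summed to 1443 ± 6.26 FPKM (SD, n = 4) in lymph node Treg, 391.8 ± 9.61 (n = 3) in pTreg and 132.4 ± 0.613 (n = 5) in tTreg. Il2rg made up 34.6%, 42.0% and 46.1% of the sum. The Il2ra share was 14.9% ± 0.235 in lymph node Treg, 4.58% ± 0.348 in pTreg and 3.76% ± 0.345 in tTreg. Il2rb held 24.2% and 21.3% in lymph node Treg and pTreg but 7.30% in tTreg, where Il4ra held 29.0%. The Il4ra share was 6.06% in lymph node Treg and 13.1% in pTreg. Il2rg with Il4ra made up 40.7%, 55.1% and 75.2%, the largest combined share being in tTreg. Il21r had its highest share, 11.2%, in pTreg.

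By FPKM, the order in lymph node Treg was Il2rg, Il2rb, Il2ra, Il7r, Il21r, Il4ra, Il9r and Il15ra, with no overlap between neighbours. In pTreg it was Il2rg, Il2rb, Il4ra, Il21r, Il7r, Il2ra, Il15ra and Il9r, also with no overlap. In tTreg Il2rg and Il4ra led, then Il2rb and Il21r. Il15ra, Il7r and Il2ra followed with overlapping neighbours, and Il9r was last.

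**Figure D4:**
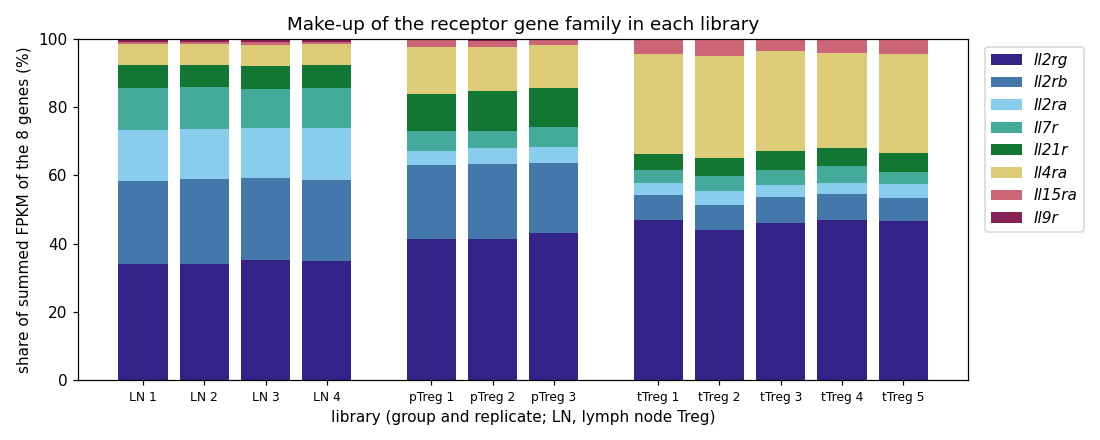
Share of the summed FPKM of the 8 genes held by each gene in each of the 12 libraries. Il2rb and Il2ra shrink and Il4ra grows from lymph node (LN) to tTreg libraries, with the libraries of each group much alike.

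Ratios between chains in 1 library were compared by an exact two-sided permutation test, for 8 ratios in 3 comparisons, with p-values adjusted over the 24 tests. The ratio of Il2ra to Il2rb was 0.616 ± 0.0158 (SD, n = 4) in lymph node Treg, 0.215 ± 0.0216 (n = 3) in pTreg and 0.516 ± 0.0628 (n = 5) in tTreg. It was lowest in pTreg, where every library lay below every other library. To Il2rg, Il2rb stood at 0.698, 0.508 and 0.158, and Il2ra at 0.430, 0.109 and 0.0816. Il4ra to Il2rg was 0.175, 0.312 and 0.629, and Il15ra to Il2rg was 0.0205, 0.0429 and 0.0909, both highest in tTreg. Il7r to Il2rg was 0.342, 0.132 and 0.0894, and Il9r to Il2rg was 0.0252, 0.00982 and 0.00344. Il21r to Il2rg was 0.196, 0.267 and 0.115, the highest in pTreg. No ratio overlapped between any pair of groups, so each exact permutation p was the smallest its design allows, 0.0571 for 3 against 4, 0.0159 for 4 against 5 and 0.0357 for 3 against 5 libraries. After adjustment these were 0.0571, 0.0476 and 0.0536, so 8 of 24 differences passed the 0.05 threshold, all of them in tTreg against lymph node Treg. Of the other 16, the 8 in pTreg against lymph node Treg could not pass even before adjustment. The 8 in pTreg against tTreg were below 0.05 before adjustment, but could not pass once adjusted over the 24 tests. How many other gene pairs separate the groups in this way was not counted. By edgeR per whole library, 87.5%, 90.3% and 52.1% of all tested genes were called in the same comparisons. The separation is therefore not read as particular to these chains. Like the shares, the ratios are those of whole libraries and are not corrected for the mix of cells.

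**Figure D5:**
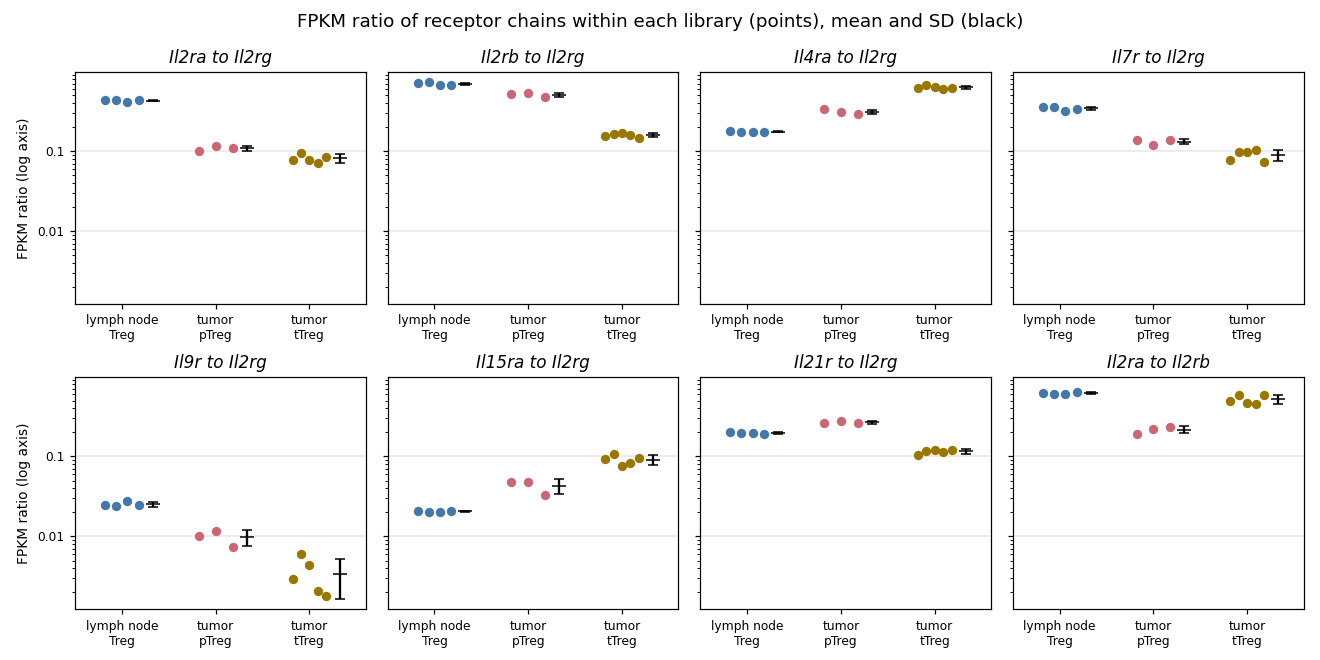
Ratio of each chain to Il2rg, and of Il2ra to Il2rb, within each library (log axis, shared by all panels), with group mean and SD in black. Ratios to Il2rg fall from lymph node to tTreg for Il2ra, Il2rb, Il7r and Il9r, rise for Il4ra and Il15ra, and are highest in pTreg for Il21r, while Il2ra to Il2rb is lowest in pTreg.

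The cytokines that bind these receptors were scarce, except for Il21 in pTreg and Il15 in both tumor groups. Of the 6, 4 were tested, while Il4 and Il9 did not pass the low-count filter and Il9 had 0 counts in each library. Per whole library, 4 of 4 rose in pTreg against lymph node Treg (47.6% of all tested genes rose), and 2 rose and 2 fell in tTreg (48.1% and 42.3%). Between the tumor groups Il2 and Il21 were higher in pTreg, Il15 was lower and Il7 was not called. On the pan-T scale 4 rose in pTreg (91.6% of all tested genes) and 3 in tTreg (96.8%), with Il2 not called. Il2 and Il21 were higher and Il15 and Il7 lower in pTreg than in tTreg on that scale (0.573% and 97% of tested genes). Il2, made mainly by activated T cells, had 13 counts in the lymph node libraries together, 56 in pTreg and 0 in tTreg. Per whole library, its pTreg level was at least 31.5-fold higher than in tTreg, with 3 counts over the group as the floor. The lymph node level was at least 5.99-fold higher than in tTreg on that scale. Per pan-T count, tTreg against lymph node Treg missed the threshold (edgeR adjusted p = 0.404). Il21, a product of activated CD4 T cells, was at 0.287, 10.3 and 0.0989 CPM, and was higher in pTreg than in either other group on both scales, although tTreg against lymph node Treg fell 2.62-fold per whole library and rose 16.1-fold per pan-T count. Il15, made by macrophages and dendritic cells among others, was at 0.257, 5.98 and 7.15 CPM, and rose 24.3-fold and 28.9-fold in the tumor groups per whole library, and 108.9-fold and 1293-fold per pan-T count.

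Of the partner receptors, Il13ra1 rose from 1.57 CPM in lymph node Treg to 69.4 in pTreg and 78.3 in tTreg, next to the macrophage list sums given above, and was 1.12-fold lower in pTreg than in tTreg per whole library and 11.2-fold lower per pan-T count. Crlf2, the partner of Il7r in the TSLP receptor, was at 17.0, 19.1 and 14.7 CPM, and was 1.304-fold higher in pTreg than in tTreg per whole library but 7.65-fold lower per pan-T count. Il13ra2 was not tested.

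Of the 7 kinase and STAT genes of the pathway, 7 fell in pTreg and in tTreg against lymph node Treg per whole library, and 7 were higher in pTreg than in tTreg, against the shares of all tested genes given above. On the pan-T scale all 7 rose in each tumor group and all 7 were lower in pTreg than in tTreg, as were 91.6%, 96.8% and 97% of all tested genes. Jak3, the kinase that binds the gamma chain, was at 327, 103 and 39.0 CPM. Stat5a was at 116, 50.4 and 20.8 CPM and Stat5b at 329, 102 and 54.9 CPM, falling 2.14-fold and 3.01-fold in pTreg against lymph node Treg per whole library and rising 2.19-fold and 1.56-fold per pan-T count.

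Among 8 feedback and STAT5 response genes, 3 rose and 5 fell in pTreg, and 2 rose and 5 fell in tTreg, against lymph node Treg per whole library. The shares of all tested genes were 47.6% and 39.8% in pTreg, and 48.1% and 42.3% in tTreg. Between the tumor groups 5 were higher and 2 lower in pTreg (26.8% and 25.3% of tested genes), with Socs2 not called. Cish, a feedback inhibitor induced by STAT5, was at 248, 135 and 56.1 CPM. Bcl2, a survival gene, was at 467, 34.8 and 17.7 CPM, a fall of 12.5-fold in pTreg and 24.7-fold in tTreg per whole library. Per pan-T count Bcl2 fell 2.67-fold in pTreg and rose 1.89-fold in tTreg. Pim1, a kinase induced by cytokines, was at 472, 525 and 365 CPM and rose 1.20-fold in pTreg per whole library and 5.60-fold per pan-T count. On the pan-T scale 7 rose and 1 fell in pTreg, 8 rose in tTreg, and 8 were lower in pTreg than in tTreg, against 91.6% and 3.86%, 96.8%, and 97% of all tested genes.

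For each member, the genes with the highest Pearson's r of log2 CPM over the 12 libraries are given as a description. They were drawn from 10520 genes with a mean of at least 5 CPM. The libraries fall into 3 groups, so r mostly compares the spacing of group levels, whatever the size of the change. Rasal3, the nearest to Il4ra, was at 682, 112 and 34.2 CPM, where Il4ra was at 325, 192 and 142. Il2ra was nearest to Madd, Sh3kbp1 and Herc3 (r of 0.9998 for Madd), and Il2rb to Cd3e, Cd96 and Lat (0.9997 for Cd3e). Il2rg was nearest to Ikzf1, Gypc and Trat1 (0.9994 for Ikzf1). The nearest to Il4ra were Rasal3, Atp8b2 and Kcnab2, and to Il7r Cd47, Septin6 and Ankrd44. Il21r was nearest to Cd28, Tnfaip3 and Dusp2 (0.9991 for Cd28), Il9r to Cd3d, Celsr1 and Nlrc3 (0.9915 for Cd3d), and Il15ra to Slc22a15, Znfx1 and Clstn1 (0.9882 for Slc22a15).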

How the data were processed

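Total RNA of sorted Treg cells was sequenced in 12 libraries on a BGISEQ-500, per the labels' protocols. The authors deposited RSEM expected counts and FPKM per gene; the submitters' processing notes name STAR 2.7.11a, RSEM 1.3.3, DESeq2 and GRCm38/mm10, with the annotation unnamed. Expected counts were rounded to whole numbers, which they already were as deposited. Genes passing edgeR's filterByExpr (15705) were fitted with group as the only term over all 12 libraries, using TMM factors and the quasi-likelihood F test (edgeR 4.0.16, R 4.3.3), with Benjamini-Hochberg adjustment and a threshold of 0.05. The same fit with library sizes set to pan-T counts is given beside it. DESeq2 1.42.0, limma 3.58.1 and other settings were alternatives. Chain ratios used an exact permutation test (scipy 1.17.1). An SE is the log2 fold change over the square root of F. Pairs of libraries within a group all exceeded sampling noise (chi-square over its degrees of freedom of 1.65 or more), so none were merged. The members, the gene lists and the tests were chosen with earlier results of these data known. Named are all members, from each pathway list the 3 genes with the smallest p in pTreg against tTreg plus Il2 and Il15, and for each member the 3 genes with the highest r. Precision is limited by 3 to 5 libraries a group and, for Il9r and Il15ra, by counts.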

Additional observations from a re-analysis of the deposited data

Results flagged for a closer look

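Dixon's test was run on 80 sets of 4 or 5 libraries of 1 group, each for 1 gene on 1 scale or for 1 chain ratio. Of these sets, 5 held a library far from the others, which chance alone gives in about 1 in 20 sets. Il2rg was at 58.2 FPKM in tumor tTreg replicate 2, against 61.4 to 62.2 in the other tTreg libraries. In lymph node Treg replicate 2, Il2rg was at 8.21 counts per 100 pan-T counts (8.48 to 8.54 in the others) and Il4ra at 4.73 (4.81 to 4.82). In tumor tTreg replicate 5, Il2rb was at 25.4 counts per 100 pan-T counts (27.1 to 27.7 in the others) and Il2rg at 7.60 counts per Foxp3 count (8.29 to 8.55).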

How the results depend on the processing

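Calls and directions of all 8 members in the 3 comparisons stayed as reported with RLE factors, library totals only, other filters on low counts, DESeq2, limma-voom, limma on log2 FPKM, the compared groups alone, and each library left out in turn (288 refitted folds). On FPKM the size for Il9r moved, to -3.49 with a pseudocount of 1 and -5.42 with 0.1 in tTreg against lymph node Treg (-6.44 as reported), and to 1.11 and 2.52 in pTreg against tTreg (3.71). The replicate block also gave 8 lower, 8 lower and 8 higher members. Replicate numbers do not mark a shared source in the labels. Deviations of log2 CPM from the group means correlated from -0.053 to 0.058 between same-number tumor libraries (3 pairs). Of the 3 pTreg libraries, 1 correlated best with its own number. Only scaling to T cell transcripts changed directions. With pan-T counts it reversed 19 member folds, left 4 as reported and weakened 1. With pan-T counts, 5 members were higher and 3 lower in pTreg against lymph node Treg (91.6% and 3.86% of all tested genes). In tTreg against lymph node Treg 7 were higher and 1 lower (96.8% and 0.955%), and in pTreg against tTreg 0 and 7 (0.573% and 97%). Most tested genes thus moved the same way with this scaling. The 4 CD3 genes gave the same counts of members. The reversed log2 fold changes with pan-T counts, then with CD3 counts, were as follows. In pTreg against lymph node Treg: Il2rb 0.30 and 0.28, Il2rg 0.70 and 0.67, Il4ra 1.57 and 1.54, Il15ra 1.71 and 1.68, Il21r 1.16 and 1.13. In tTreg against lymph node Treg: Il2ra 0.23 and 0.45, Il2rb 0.52 and 0.73, Il2rg 2.66 and 2.87, Il4ra 4.45 and 4.67, Il7r 0.57 and 0.78, Il15ra 4.57 and 4.78, Il21r 1.83 and 2.05. In pTreg against tTreg: Il2ra -1.48 and -1.73, Il2rb -0.21 and -0.45, Il2rg -1.96 and -2.20, Il4ra -2.88 and -3.13, Il7r -1.20 and -1.45, Il15ra -2.86 and -3.11, Il21r -0.67 and -0.92. Il9r in pTreg against tTreg kept its direction but missed the threshold (0.42 and 0.18). The number of called chain ratios ranged from 0 to 8 with each library left out: it was 0 without any 1 lymph node or tTreg library, since the smaller design cannot reach the threshold. Depth limits Il9r in tTreg (1 to 11 counts).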

Other observations

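Counts of the members were also set against the Foxp3 count of the same library, as a description chosen after seeing the data. Lymph node Treg libraries held 441 ± 11.1 CPM of Foxp3 (SD, n = 4), tumor pTreg libraries 20.3 ± 0.583 (n = 3) and tumor tTreg libraries 8.74 ± 0.478 (n = 5). Per Foxp3 count, Il2ra stood at 1.60, 2.90 and 1.91 in the same order, Il2rb at 2.90, 15.4 and 4.20, and Il7r at 1.04, 2.89 and 1.56. Il21r stood at 0.447, 4.29 and 1.61 and Il9r at 0.0776, 0.236 and 0.0411. Il2rg stood at 1.298, 9.06 and 8.28. These 6 genes were highest in pTreg on this scale, whereas Il2ra and Il7r were lowest in pTreg per pan-T count. Il4ra, at 0.737, 9.44 and 16.3, and Il15ra, at 0.0288, 0.405 and 0.692, were highest in tTreg.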
